A study of Mus musculus with 12 samples.

Results

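The small leucine-rich proteoglycans are secreted matrix proteins built around a curved stack of leucine-rich repeats. The set described here holds 9 of them: Dcn (decorin), Lum (lumican), Bgn (biglycan), Fmod (fibromodulin), Ogn (osteoglycin), Prelp, Aspn (asporin), Omd (osteomodulin) and Podn (podocan). They were taken by symbol from the Ensembl identifiers of a count table, 9 of 55414 identifiers, and all 9 passed the filter on low counts. The table came from 3T3-L1, an established mouse preadipocyte line that turns into fat cells when treated with hormones. Polyadenylated RNA was sequenced from 4 groups of 3 libraries. At day 0 the cells had just passed confluence and had received no inducer, and they carried either the control GFP construct or FHL2-GFP, which overexpresses the LIM-domain cofactor FHL2 as a GFP fusion. At day 2 both lines had been held with 170 nM insulin, 1 uM dexamethasone and 0.5 mM isobutylmethylxanthine in serum. The labels do not name the promoter of the constructs or say how many clones were used. The title of the series names a complex of FHL2 and NFAT5 in early adipogenesis.

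Members of the family bind collagen fibrils through their repeats and set how fibrils pack, and most carry chondroitin, dermatan or keratan sulfate chains. They also bind growth factors and cell surface receptors. Dcn, Bgn and Aspn form class I, Fmod, Lum, Prelp and Omd belong to class II, Ogn to class III and Podn to class V. Preadipocytes lay down a fibrillar matrix that is rebuilt when they round up and store lipid.

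Library totals ranged from 10047708 to 21872139 counts, and 17977 to 18811 genes had a count at day 0 against 12689 to 16131 at day 2. The labels do not say that the 3 libraries of a group came from separate cultures, so a p measures only the spread between these libraries. In bulk RNA, fewer cells of a type and less RNA per cell cannot be told apart. Levels below are TMM-scaled CPM, the count of a gene divided by the scaled library total, and a member was called at an adjusted p under 0.05 from edgeR, adjusted over all 14435 genes tested. Fhl2 itself, the gene of the construct, was not called between the lines (adjusted p = 1.00 at day 0 and 0.914 at day 2): it measured 61.2 ± 2.40 CPM in control and 62.7 ± 4.35 CPM in FHL2 cells at day 0 (SD, n = 3 each), and 16.3 ± 4.03 and 17.1 ± 6.49 CPM at day 2. Whether reads of the FHL2-GFP transcript fall on this gene was not tested, so its counts do not check the labels. All 8 fibroblast and preadipocyte markers had counts in every group, with a summed level of 13869 to 17068 CPM. Of 6 adipocyte markers, Adipoq, Plin1, Cidec and Lep were at 0 at day 0, and the summed level went from 9.21 to 13.6 CPM at day 0 to 72.5 to 145 CPM at day 2. Lep stayed at 0 at day 2. Of 8 bone and cartilage markers, Bglap was at 0 throughout, and the sum was 254 to 292 CPM at day 0 and 189 to 278 CPM at day 2. Of 4 tendon markers, Thbs4 was at 0 throughout, and the sum went from 23.2 to 36.0 CPM at day 0 to 2.2 to 10.8 CPM at day 2. The sums of the macrophage and blood, endothelial, epithelial and muscle markers reached at most 5.13 CPM in a library. Their part in the member changes below was not tested.

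Per kilobase of exon, which allows genes to be compared, Bgn led the family in every group. In control cells at day 0 its level was 1438 ± 10.2 CPM per kilobase (SD, n = 3). Aspn followed at 237 ± 96.6, Dcn at 157 ± 12.4 and Ogn at 137 ± 60.6 CPM per kilobase, and these neighbours in the order did not differ beyond their spread. Prelp (27.5 ± 2.99), Fmod (15.9 ± 1.22) and Lum (10.1 ± 1.12 CPM per kilobase) formed a lower tier with separate ranges. Podn, at 1.5 ± 0.326, and Omd, at 0.585 ± 0.154 CPM per kilobase, were the scarcest. At day 2 the order in control cells was Bgn (2551 ± 214), Dcn (67.8 ± 10.1), Aspn (41.0 ± 12.4), Prelp (20.4 ± 1.37), Ogn (10.6 ± 5.16), Lum (5.13 ± 2.48), Podn (1.60 ± 0.440) and Fmod (1.26 ± 0.679 CPM per kilobase), with Omd at 0. In FHL2 cells Bgn measured 1620 ± 60.2 at day 0 and 2737 ± 184 CPM per kilobase at day 2. Counts of the family made up 1.15 to 1.30% of a library at day 0 and 1.35 to 1.70% at day 2. Of those counts, Bgn took 78.7 to 86.4% at day 0 and 94.7 to 96.5% at day 2. These are shares of raw counts, which rest in part on the lower Dcn and Aspn counts at day 2, and they were not computed with the correction for GC content described further on, under which both genes change sign.

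**Figure D1:**
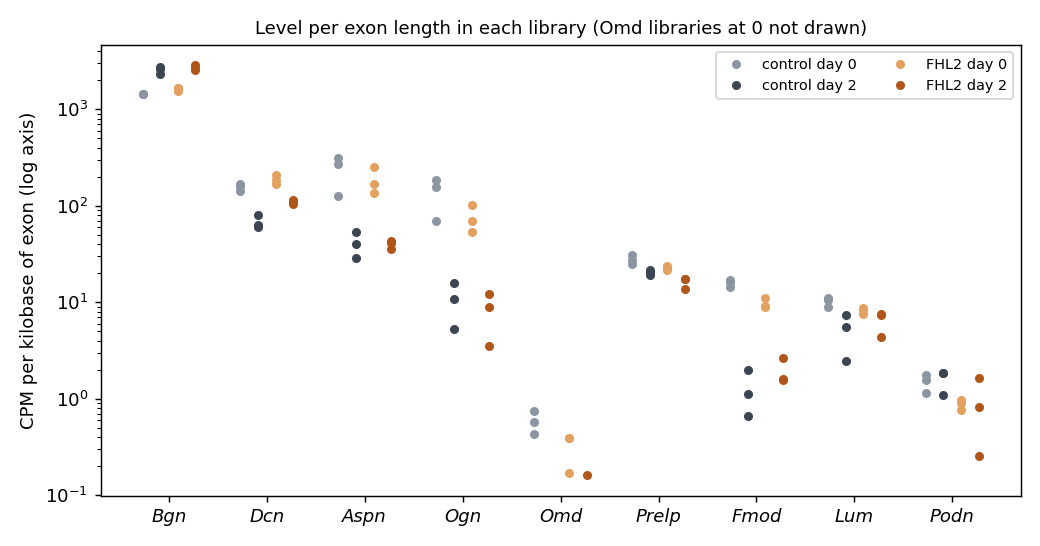
Level of each member per kilobase of exon, in CPM on a log axis, with 1 point per library and 4 groups of 3 libraries. Bgn lies above every other member in all 12 libraries, and Omd libraries with no count are not drawn.

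Between day 0 and day 2, on the TMM scale, Bgn rose and most other members fell in the control line. In control cells 1 member was called higher (Bgn) and 7 lower (Dcn, Lum, Fmod, Ogn, Prelp, Aspn and Omd), where 57.1% of all tested genes were called, 26.3% higher and 30.8% lower. The values of Dcn, Lum and Aspn turned positive once the fit was corrected for GC content, as described further on. In FHL2 cells Bgn was called higher and 5 members lower (Dcn, Fmod, Ogn, Prelp and Aspn), with 56% of all genes called (25.8% higher, 30.2% lower), and Dcn and Aspn again turned under that correction. The median log2 fold change of the 9 members was -1.21 in control and -0.77 in FHL2 cells, against -0.14 and -0.11 over all genes tested. For 8 of the 9 members, Podn being the exception, the libraries of the days did not overlap in either line, with 1 higher and 7 lower at day 2. Of all genes, 68.7% did not overlap in control (29.8% higher, 38.9% lower) and 66.2% in FHL2 cells (29.2% higher, 37% lower). The 3 day 2 libraries poorest in detected genes were control replicate 3 and FHL2 replicates 1 and 2. Without them, the log2 fold change in FHL2 cells was -0.85 for Lum and -1.74 for Podn. FHL2 day 2 is then replicate 3 alone, which is assumed to vary like the other groups. That library has the lowest Lum and Podn levels of its group, so those 2 values rest on 1 library.

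**Figure D2:**
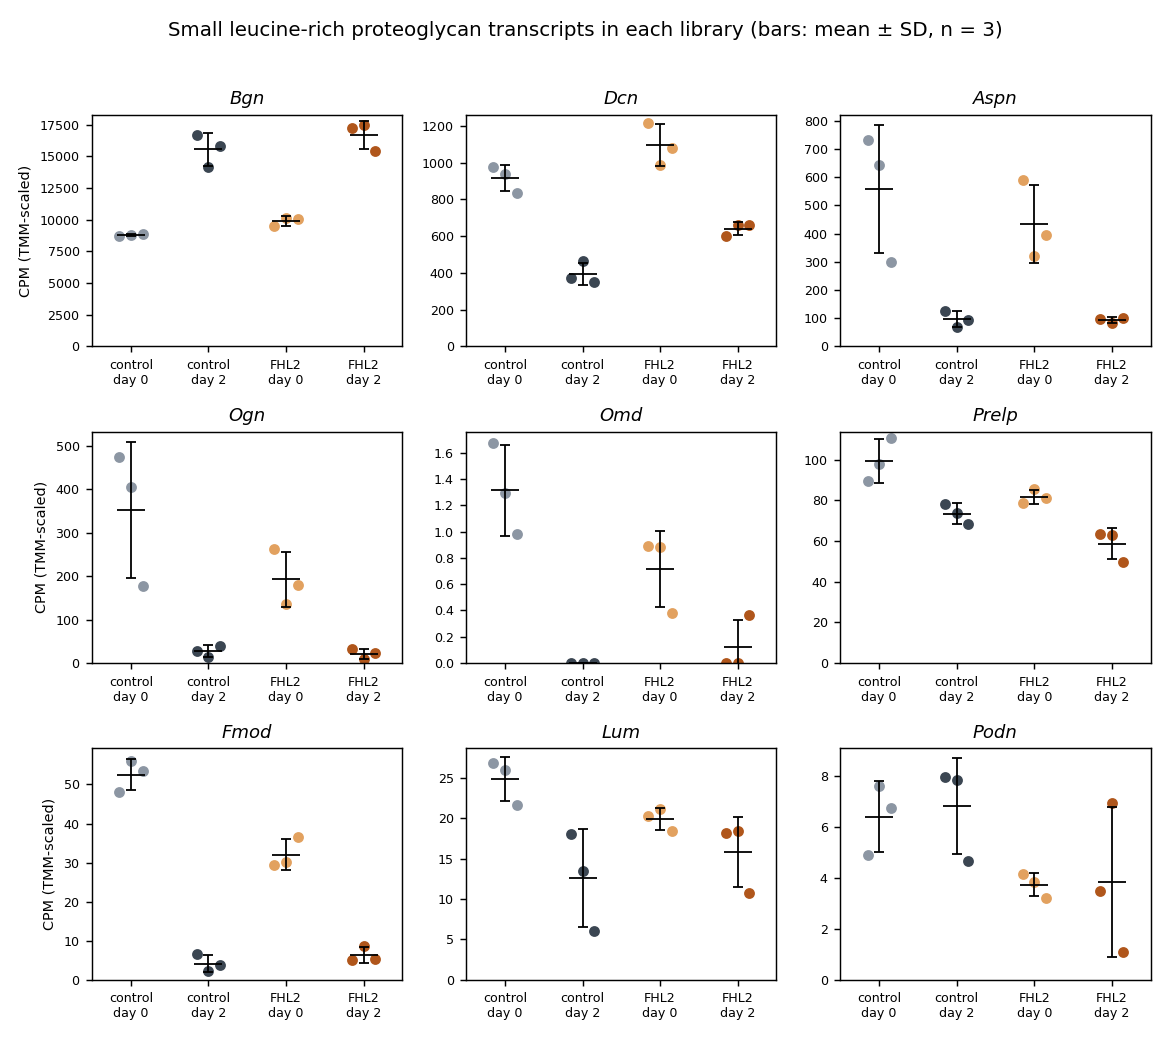
CPM of each member in each library, with 1 panel per gene, points for the 3 libraries of a group and bars for the mean ± SD. Bgn is higher and Fmod and Ogn lower at day 2 in both lines, and Aspn and Ogn spread most between the control day 0 libraries.

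Class I holds Bgn, the 1 member that rose on the TMM scale. Bgn, a chondroitin sulfate proteoglycan that binds collagen and innate immune receptors, measured 8722, 8745 and 8839.6 CPM in the control libraries at day 0 and 16711, 14140.4 and 15824 CPM at day 2. In FHL2 cells it measured 9461, 10132 and 10055 CPM at day 0 and 17227, 17447 and 15407 CPM at day 2. All 6 day 2 libraries lay above all 6 day 0 libraries. The rise was 1.77-fold in control (log2 fold change 0.83, SE 0.072, adjusted p = 3.38e-07) and 1.69-fold in FHL2 cells (0.76, SE 0.072, adjusted p = 7.97e-07).

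Dcn, which binds collagen I and sequesters growth factors such as TGF-beta, went the other way on the same scale. Its control libraries measured 977, 936 and 836 CPM at day 0 and 372, 463 and 352 CPM at day 2. Its FHL2 libraries measured 1217, 989.7 and 1082 CPM at day 0 and 601, 661 and 663 CPM at day 2. Every day 2 library lay below every day 0 library. With TMM scaling Dcn fell 2.32-fold in control (log2 fold change -1.21, SE 0.11, adjusted p = 5.31e-07) and 1.71-fold in FHL2 cells (-0.77, SE 0.11, adjusted p = 3.26e-05), but with the correction for GC content the values were 1.22 and 1.33, so the direction of Dcn depends on that choice. The ratio of Bgn to Dcn counts went from 8.93 to 10.6 at day 0 to 30.5 to 45.0 at day 2 in control, and from 7.77 to 10.2 to 23.2 to 28.7 in FHL2 cells. These ratios are of raw counts: with the GC correction the value of Dcn lies above that of Bgn (0.59 in control, 0.54 in FHL2 cells), which turns the direction of the ratio.

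Aspn, a relative of decorin with a stretch of aspartate residues and no sulfated chain, measured 731, 642 and 300.2 CPM in control at day 0 and 127, 68.3 and 94.3 CPM at day 2. In FHL2 cells it measured 589.6, 322 and 393 CPM at day 0 and 95.9, 82.8 and 102 CPM at day 2. The day 0 libraries of a line differed up to 2.44-fold among themselves, yet each lay above every day 2 library. With TMM scaling Aspn fell 5.78-fold in control (log2 fold change -2.53, SE 0.31, adjusted p = 8.16e-06) and 4.65-fold in FHL2 cells (-2.22, SE 0.31, adjusted p = 2.60e-05); with the GC correction the values were 0.41 and 0.20 and neither was called.

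In class II the keratan sulfate proteoglycan Fmod, which binds collagen I beside lumican, fell in both lines. It measured 48.1, 56.0 and 53.3 CPM in control at day 0 and 6.61, 2.2 and 3.68 CPM at day 2. In FHL2 cells it measured 29.5, 30.1 and 36.5 CPM at day 0 and 5.13, 8.71 and 5.33 CPM at day 2. No day 2 library came near the lowest day 0 library. Fmod fell 12.5-fold in control (log2 fold change -3.64, SE 0.33, adjusted p = 5.50e-07) and 5.02-fold in FHL2 cells (-2.33, SE 0.31, adjusted p = 2.03e-05). Fmod was called lower under all 23 alternatives in each line, between -4.16 and -3.27 in control and between -2.84 and -2.16 in FHL2 cells.

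Lum, the corneal and dermal keratan sulfate proteoglycan, measured 26.9, 26.0 and 21.7 CPM in control at day 0 and 18.1, 13.5 and 6.06 CPM at day 2. Its FHL2 libraries measured 20.3, 21.1 and 18.5 CPM at day 0 and 18.2, 18.4 and 10.8 CPM at day 2, so that the groups all but touched. Lum fell in control with TMM scaling (log2 fold change -0.97, SE 0.32, adjusted p = 0.0177), and its value with the GC correction was 0.62, not called. Lum also lost its call when any of 3 control libraries was left out: day 0 replicate 1 (-0.92), day 2 replicate 2 (-0.96) or day 2 replicate 3 (-0.58). In FHL2 cells Lum did not pass the test (-0.34, SE 0.32, adjusted p = 0.384), and with the GC correction it was called higher at 1.15.

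Prelp, which anchors collagen to basement membrane heparan sulfate, had a small and steady difference. It measured 89.4, 97.9 and 111 CPM in control at day 0 and 78.5, 73.6 and 68.6 CPM at day 2, and 78.6, 85.6 and 81.1 CPM against 63.5, 62.8 and 49.9 CPM in FHL2 cells. Within each line the days did not overlap. Prelp fell 1.35-fold in control (log2 fold change -0.43, SE 0.12, adjusted p = 0.00795) and 1.39-fold in FHL2 cells (-0.48, SE 0.12, adjusted p = 0.00443). Leaving out day 2 replicate 3 of control ended that call (-0.31), and with the GC correction Prelp was called lower in both lines at -0.94 and -0.97.

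Omd, a sulfotyrosine-rich member known from bone, was at the limit of detection. The control libraries held 37, 24 and 16 Omd counts at day 0 and none at day 2. Against a floor of 3 counts over the group, Omd was at least 16.7-fold lower at day 2 in control (adjusted p = 0.00495), a bound that covers counting error only. The FHL2 libraries held 21, 18 and 8 counts at day 0 and 0, 0 and 6 at day 2, which did not pass the test (adjusted p = 0.122). The call in control was lost with the GC correction.

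Ogn, the class III member also called mimecan, followed Aspn. It measured 475, 405 and 177 CPM in control at day 0 and 27.9, 13.7 and 40.1 CPM at day 2. In FHL2 cells it measured 262, 136 and 180.0 CPM at day 0 and 31.3, 8.997 and 22.8 CPM at day 2. The lowest day 0 library lay well above the highest day 2 library in both lines. Ogn fell 13.1-fold in control (log2 fold change -3.71, SE 0.48, adjusted p = 1.42e-05) and 9.14-fold in FHL2 cells (-3.19, SE 0.47, adjusted p = 4.93e-05). With the GC correction it stayed negative at -0.96 and -0.97 but was called in neither line. Podn, the class V member, did not pass the test: it measured 4.88, 7.61 and 6.75 CPM in control at day 0 and 7.95, 7.86 and 4.65 CPM at day 2, with a log2 fold change of 0.094 (SE 0.53, adjusted p = 0.894). In FHL2 cells Podn measured 4.14, 3.86 and 3.23 CPM at day 0 and 3.47, 6.94 and 1.09 CPM at day 2 (0.030, SE 0.54, adjusted p = 0.968). The 6.37-fold spread of Podn among the FHL2 day 2 libraries exceeds any difference between its groups.

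The day difference of all genes followed the GC content of their transcripts. Across the 10443 genes that averaged 5 CPM or more, Spearman's rho between GC content and log2 fold change was 0.689 in control and 0.670 in FHL2 cells. Genes share libraries and are not independent replicates, so these are descriptions. In the lowest of 5 equal classes of GC content (27.5 to 43.8%) the median change in control was -1.79 and 71.2% of genes were called lower. In the highest class (55.2 to 78.3%) it was 0.73, with 4.61% called lower. Of the members, Aspn (34.3%), Omd (36.1%), Ogn (36.3%), Dcn (37.4%) and Lum (41.9%) fall in the lowest class, Bgn (51.2%) in the third, Fmod (53.7%) and Prelp (53.8%) in the fourth and Podn (56.3%) in the highest.

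Read against genes of like GC content, some members lay below and others above the median of their class, not all of them beyond its quartiles. Fmod was 4.14 log2 units below its class median in control and lower than all but 1.53% of the class, and in FHL2 cells it was 2.83 below. Ogn was 1.91 and 1.56 below, Prelp 0.93 and 0.99, and Aspn 0.74 and 0.59. The difference of Podn from its class median was -0.63 in control and -0.66 in FHL2 cells. Dcn was 0.58 above its class median in control and 0.86 above in FHL2 cells, Lum 0.82 and 1.29 above, and Bgn 0.87 and 0.79 above. In control, Dcn (-1.21), Lum (-0.97) and Aspn (-2.53) lay between the quartiles of their class, -2.66 and -0.96. In FHL2 cells Aspn (-2.22) did so too, between -2.41 and -0.80. Omd is left out because control day 2 holds no count. A fit with a smooth GC offset per library, which moves the median of all genes by 0.15 in control and 0.13 in FHL2 cells, called 4 members in control: Bgn (0.59) and Dcn (1.22) higher, Fmod (-4.15) and Prelp (-0.94) lower. Over all 14435 genes tested, that fit called 5633 in control (3178 higher, 2455 lower) and 5625 in FHL2 cells (3094 higher, 2531 lower). In FHL2 cells the fit called 5 members, with Bgn (0.54), Dcn (1.33) and Lum (1.15) higher and Fmod (-2.81) and Prelp (-0.97) lower. Bgn, Fmod and Prelp thus kept their direction and call in both lines under both scalings. Whether the dependence on GC content arose in the cells or in the preparation of the libraries was not tested.

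**Figure D3:**
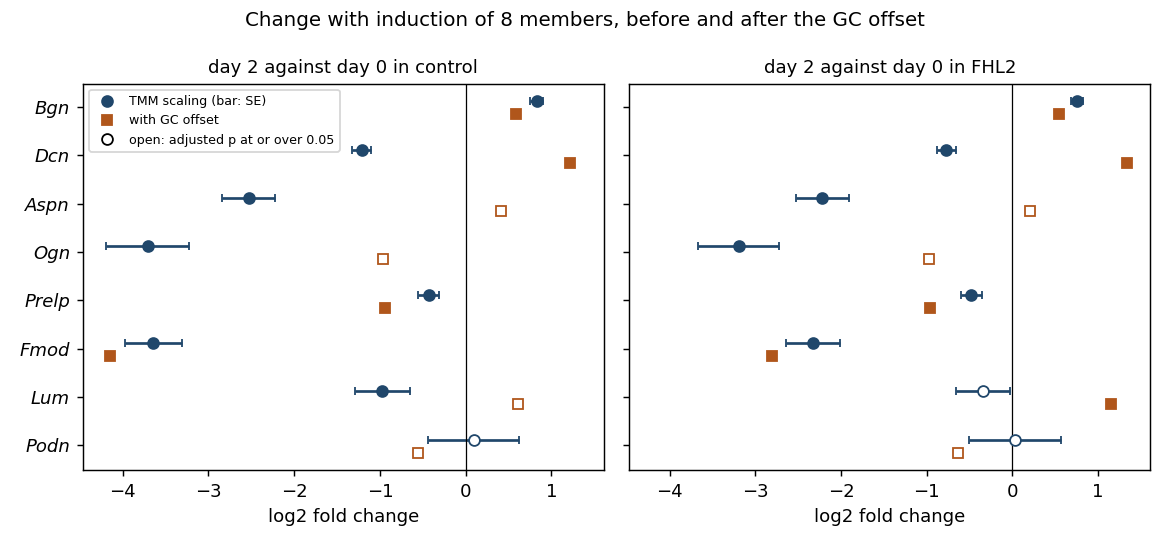
Log2 fold change of day 2 against day 0 in control (left) and FHL2 cells (right) for 8 members, with TMM scaling (circles, bars are SE) and with the GC offset (squares); open symbols have an adjusted p at or over 0.05. Bgn, Fmod, Prelp and Ogn keep their side of 0, and Dcn, Lum, Aspn and Podn cross it. Omd is left out because control day 2 holds no count.

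**Figure D4:**
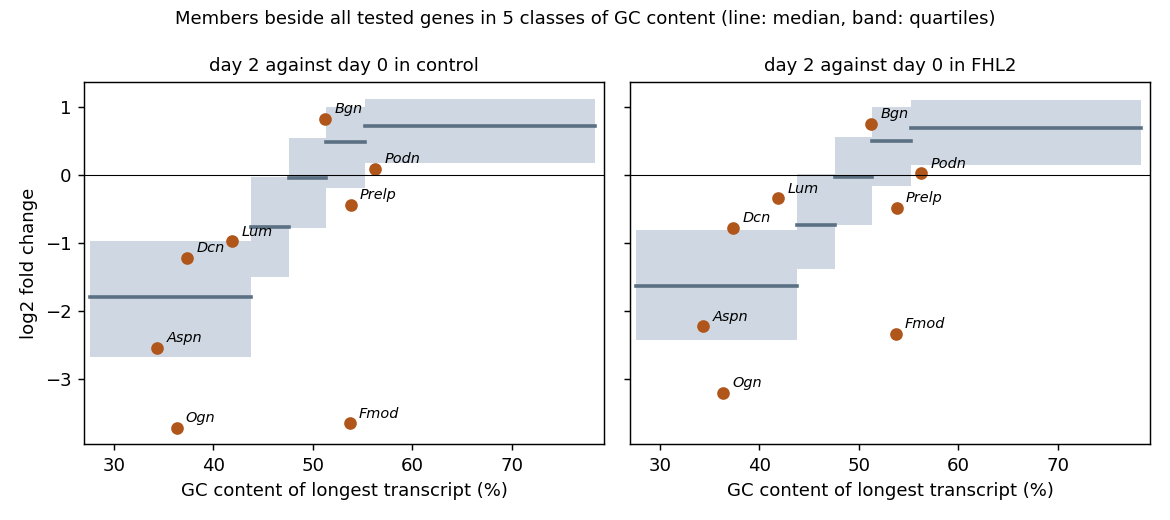
Log2 fold change of day 2 against day 0 (vertical) by GC content of the longest transcript in percent (horizontal), with the median (line) and quartiles (band) of all genes in 5 classes and 8 members as points. Fmod lies far below its class in both lines, and Dcn and Lum lie above the median of theirs.

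Between the lines at day 0, no member was called by edgeR, against 0.0485% of all genes (0.0208% higher, 0.0277% lower), nor by DESeq2 or limma-voom. Dcn (log2 fold change 0.26) and Bgn (0.17) measured higher in FHL2 cells, and Fmod (-0.71) and Prelp (-0.28) lower, each at an unadjusted edgeR p under 0.05. The share of all genes at that unadjusted threshold is not given here, so these do not set the members apart. The libraries of the lines did not overlap for 7 of the 9 members, 2 higher in FHL2 cells (Dcn and Bgn) and 5 lower (Lum, Fmod, Prelp, Omd and Podn), where 21.6% of all genes did not overlap (10.5% higher, 11.1% lower). Fmod held 29.5 to 36.5 CPM in FHL2 cells against 48.1 to 56.0 CPM in control. Fmod was called lower when the 6 day 0 libraries were fitted alone (-0.69), a fit in which the spread between libraries is that of day 0 (biological coefficient of variation 0.121 at day 0, 0.463 at day 2). That fit called 247 of the 14435 genes, 126 higher and 121 lower. Ogn (-0.87) was called lower only without a filter on low counts, where 69 of 24091 genes were called, and its lines overlapped. Every member had an adjusted p of 1.00 in the fit of all libraries.

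At day 2 Dcn was the 1 member called between the lines, higher in FHL2 cells, where 2.07% of all genes were called, 0.72% higher and 1.35% lower. Its FHL2 libraries held 601 to 663 CPM and its control libraries 352 to 463 CPM, without overlap. The difference was 1.62-fold (log2 fold change 0.70, SE 0.11, adjusted p = 0.00651). Its direction was the same under all 23 alternatives, from 0.51 to 0.82, but the call was lost with the GC offset (0.52, adjusted p = 0.111, where the alternatives ranged from 8.04e-10 to 0.111). When the day 2 libraries were fitted alone with edgeR, Dcn was still called (0.70, adjusted p = 0.0153). The spread in that fit is that of day 2 (biological coefficient of variation 0.463), and it called only 53 of the 14435 genes, 12 higher and 41 lower. The summed level of the 6 adipocyte markers was also apart between the lines at day 2, at 72.5 to 102 CPM in FHL2 cells and 112 to 145 CPM in control. None of the 5 tested markers was itself called between the lines by edgeR, and DESeq2 called 1 lower in FHL2 cells. The part of these markers in the Dcn difference was not tested. Prelp was the other member whose lines did not overlap (14.7% of all genes did not, 7.28% higher and 7.41% lower), at 49.9 to 63.5 CPM in FHL2 cells and 68.6 to 78.5 CPM in control (-0.33, SE 0.12, unadjusted p = 0.0195, adjusted p = 0.182). Bgn (0.10), Fmod (0.60), Lum (0.32), Ogn (-0.36), Aspn (-0.045) and Podn (-0.84) did not pass the test and their libraries overlapped. Without those 3 gene-poor day 2 libraries, the log2 fold change was 0.64 for Dcn, -0.63 for Prelp and -2.88 for Podn. That fit leaves a single FHL2 library at day 2, which is assumed to vary like the others, and it is the one with the fewest Podn counts (18).

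The interaction asks whether the change with induction differed between the lines. No member was called by edgeR (0.00693% of all genes were), by DESeq2 or by limma-voom. Fmod at 1.32 (SE 0.44, adjusted p = 0.590) and Dcn at 0.44 (SE 0.15, adjusted p = 0.592) had an unadjusted edgeR p under 0.05. Both had a smaller measured fall in FHL2 cells with TMM scaling. The share of all genes at that unadjusted threshold is not given here. With the GC offset the interaction of Fmod was 1.35 and that of Dcn 0.12. Lum, called lower in control only, had an interaction of 0.63 (SE 0.45, adjusted p = 0.845), so its change is not shown to differ between the lines.

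**Figure D5:**
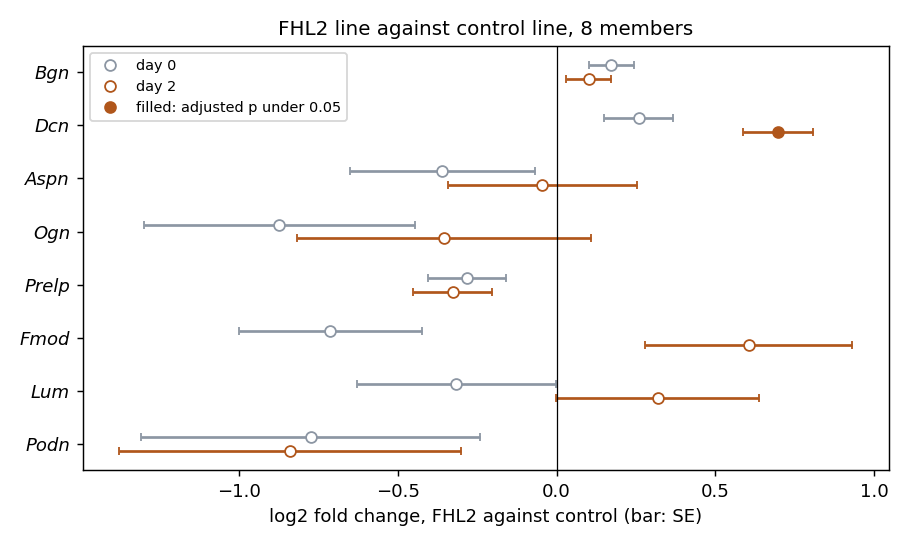
Log2 fold change of FHL2 against control cells at day 0 (grey) and day 2 (orange) for 8 members, bars are SE and filled points have an adjusted p under 0.05. Dcn at day 2 is the 1 filled point, at 0.70; Omd is left out because control day 2 holds no count.

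Several members lie side by side in the genome. In RefSeq GRCm38.p6, Aspn, Omd and Ogn follow each other on chromosome 13 after Ecm2, Dcn and Lum are neighbours on chromosome 10 ahead of Kera and Epyc, and Prelp and Fmod adjoin on chromosome 1 after Optc. The files use GRCm39, so coordinates are given only for the promoter table of the older build. Aspn and Ogn moved together across libraries, with a Pearson r of 0.970 over 12 libraries and 0.763 after group means were removed. Omd, which lies between them and has few counts, had 0.248 with Aspn and 0.245 with Ogn after that removal. Pairs on different chromosomes reached as much, with 0.789 for Bgn and Fmod and 0.767 for Prelp and Podn. A high r is thus not particular to neighbours. These points share library depth and composition, so the values are descriptions. Replicate 3 of control day 0 was the lowest of its group for both, and the ratio of Aspn to Ogn counts stayed within 1.54 to 1.69 in control and 2.19 to 2.37 in FHL2 cells at day 0 while their levels varied up to 2.68-fold. At day 2 the same ratio was 2.35 to 5.00 in control and 3.07 to 9.20 in FHL2 cells, on 127 to 451 Ogn counts per library. Dcn and Lum, neighbours as well, had an r of 0.688 over all libraries and 0.259 within groups. Prelp and Fmod had 0.748 and 0.326. Cenpp lies on the opposite strand across Aspn, Omd and Ogn and shares 7 exonic bases with Aspn, but it held only 0 to 49 counts per library. The antisense gene Gm15851 overlaps 350 exonic bases of Prelp and held 0 to 2 counts. The sources used here do not state the strand setting of the counting.

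The RefSeq promoter table (GRCm38.p6) had an entry for 7 of the 9 members, with none for Dcn and Lum. The 250 bases before the start site are printed for Bgn, which rose, and for the 4 members whose counts fell furthest at day 2 with TMM scaling, all on the plus strand, so that their letters can be set beside their counts. They lie at chrX:73483351-73483600 (Bgn), chr1:134037004-134037253 (Fmod), chr13:49607765-49608014 (Ogn), chr13:49544193-49544442 (Aspn) and chr13:49582212-49582461 (Omd). Capitals mark matches on either strand to 6 short motifs: TATAAA (a core promoter box), TGGAAA (core bound by NFAT factors, NFAT5 included), AGAACA (glucocorticoid receptor half-site), TGACGT (core of the cAMP response element), GGGCGG (GC box) and GGAATG (TEAD core). Where matches overlap, the capitals run together. For the Ogn entry, a short stretch downstream of the start site was not found in any GENCODE M21 transcript of the gene. For the others it was found, which does not place their start sites.
Bgn: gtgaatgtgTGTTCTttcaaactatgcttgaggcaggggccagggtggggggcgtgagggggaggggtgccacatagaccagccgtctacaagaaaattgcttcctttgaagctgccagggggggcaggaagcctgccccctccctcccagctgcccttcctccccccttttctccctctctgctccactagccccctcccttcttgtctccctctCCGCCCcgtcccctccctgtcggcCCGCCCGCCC
Fmod: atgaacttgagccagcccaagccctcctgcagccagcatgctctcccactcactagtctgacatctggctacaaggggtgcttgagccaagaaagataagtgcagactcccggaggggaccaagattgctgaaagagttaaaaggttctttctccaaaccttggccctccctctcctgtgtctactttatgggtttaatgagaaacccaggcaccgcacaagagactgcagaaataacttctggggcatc
Ogn: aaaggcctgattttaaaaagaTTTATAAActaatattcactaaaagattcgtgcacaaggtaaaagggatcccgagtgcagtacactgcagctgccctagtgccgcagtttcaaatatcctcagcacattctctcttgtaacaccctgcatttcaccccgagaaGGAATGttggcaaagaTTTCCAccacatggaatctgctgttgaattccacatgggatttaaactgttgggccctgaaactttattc
Aspn: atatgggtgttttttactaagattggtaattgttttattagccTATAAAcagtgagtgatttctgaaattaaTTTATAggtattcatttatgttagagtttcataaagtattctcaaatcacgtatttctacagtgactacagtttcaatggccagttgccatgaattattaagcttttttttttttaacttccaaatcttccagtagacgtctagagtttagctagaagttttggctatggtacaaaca
Omd: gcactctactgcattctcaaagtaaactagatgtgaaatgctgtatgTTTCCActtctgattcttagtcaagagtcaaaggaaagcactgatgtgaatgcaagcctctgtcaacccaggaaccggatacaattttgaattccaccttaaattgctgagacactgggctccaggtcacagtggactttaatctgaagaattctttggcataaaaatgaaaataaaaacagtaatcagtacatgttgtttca

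The NFAT core was present in the Ogn and Omd windows, 2 of 7 members with an entry, and in 18.6% of 32851 promoters in the table. In Ogn the match begins 70 bases and in Omd 203 bases before the start, both on the opposite strand. TATAAA occurred in Aspn and Ogn but 178 bases or more before the start (12.4% of all promoters hold it). AGAACA occurred only in Bgn, 241 bases before the start (16.1%), GGGCGG in Bgn and Podn (32.7%), GGAATG in Ogn (12.6%) and TGACGT in none of the 7 (6.47%). The Fmod window held none of the 6. The windows of Aspn, Omd and Ogn had GC contents of 30, 38.4 and 42.0%, against 51.2% for Fmod and 64.4% for Bgn. These short strings describe the letters in the window only.

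Genes that act on the family or share its matrix changed in both directions with induction. Of 84 such genes tested, 32 were called higher (38.1%) and 26 lower (31%) in control, and 29 (34.5%) and 25 (29.8%) in FHL2 cells, against the 26.3% and 30.8%, and 25.8% and 30.2%, of all genes. With the GC offset, 3178 of all 14435 genes were called higher and 2455 lower in control, and 3094 and 2531 in FHL2 cells. Changes of single genes named below are with TMM scaling, and their outcome with the GC offset is given only where stated. Among 18 tested genes of chondroitin and dermatan sulfate synthesis, 9 were called higher and 5 lower in control (4 and 4 with the GC offset), with a median of 0.51. Dse, the epimerase that makes dermatan sulfate, went from 93.5 ± 10.6 to 24.5 ± 3.54 CPM in control (log2 fold change -1.93) and fell by 2.14 in FHL2 cells, called lower with the GC offset too. Csgalnact1, which starts chondroitin chains, fell by 2.31 and 1.61. For keratan sulfate and tyrosine sulfation, 3 of 6 tested genes rose in control and 1 fell (1 and 1 with the GC offset), with Tpst2 at 0.78 in FHL2 and 1.01 in control cells. Of the 11 collagens that the family binds, 4 rose and 3 fell in control (2 and 5 with the GC offset). Col6a1 (1.41 in control, 1.27 in FHL2) and Col6a2 (1.47 and 1.32) were higher, and Col1a1, the main fibrillar collagen chain, was lower (-0.96 and -1.23), each with the same direction and call after the GC offset.

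Of 6 tested maturation proteases 4 rose and none fell in control (2 and 1 with the GC offset). Adamts2, the procollagen N-proteinase, rose by 1.53 in control and 1.65 in FHL2 cells with TMM scaling. Bmp1, which trims the Bgn propeptide, rose by 0.57 and 0.53 with TMM scaling, but with the GC offset the values were -0.12 and -0.13. Of 9 degrading proteases 2 rose and 3 fell in control, as many as with the GC offset. The aggrecanase Adamts5 fell by 2.24 in control and 2.63 in FHL2 cells, and Mmp2 rose by 1.08 in each. Of 12 ligands and receptors 2 rose and 6 fell in control (3 and 2 with the GC offset): Tgfb1, a ligand that Dcn and Bgn bind, went from 25.04 ± 5.28 to 58.8 ± 1.44 CPM (1.23), and Lrp1, the endocytic receptor of Dcn, rose by 1.49. Of 16 other proteoglycans 7 rose and 6 fell in control (8 and 5 with the GC offset), led by Prg4, a lubricating mucin-like proteoglycan (6.61 in control, 6.85 in FHL2), and by the large chondroitin sulfate proteoglycan Vcan (2.34 and 2.44). Of the 6 other leucine-rich family genes tested, 1 rose and 2 fell in control (2 and 2 with the GC offset). Tsku rose by 2.19 in control and 1.95 in FHL2 cells. The genes called lower, named after their values were seen, were Ecm2 (-1.89 in control, 0.12 and not called with the GC offset) and Chadl, at 1.96 ± 0.458 CPM at day 0 and without a count at day 2 in control, and in FHL2 cells Podnl1 (-1.32). In FHL2 cells the same lists held 9 higher and 6 lower, 3 and 0, 3 and 4, 3 and 0, 2 and 3, 2 and 5, 6 and 6, and 1 and 1 genes, in the order given. With the GC offset these became 5 and 5, 2 and 2, 2 and 8, 2 and 0, 3 and 3, 2 and 3, 8 and 6, and 2 and 1.

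Between the lines at day 2, 9 of these 84 related genes were called, each lower in FHL2 cells (10.7%, against 1.35% of all genes called lower). They were Col1a1 (-0.40), Col6a3 (-0.61), Adamts2 (-0.59), Adamts4 (-1.29), Lrp1 (-0.64), Chst1 (-1.63), Col18a1 (-0.74), Gpc1 (-0.55) and Sdc1 (-0.45). All but Gpc1 were called with the GC offset too, and Lrp1 was not called with the replicate block. Whether these genes were called when the day 2 libraries were fitted alone is not given here. The lists were chosen with earlier results of these data known, so the share called is a description and not a test of the lists. At day 0 Adamts2 was the 1 called, lower in FHL2 cells at 44.2 ± 0.555 against 72.1 ± 5.38 CPM.

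The genes whose log2 CPM tracked a member most closely over the 12 libraries, among 9742 genes compared, were found by Pearson's r. They were Serpine2 for Dcn (0.988), Hyou1 for Bgn (0.994), Smim15 for Aspn (0.991), Scn2a for Ogn (0.992), Tmem67 for Lum (0.973), Tenm4 for Prelp (0.945) and Spry4 for Podn (0.842). The points share libraries that split by day, so a high r is common.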

How the data were processed

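The authors deposited raw counts for Ensembl identifiers in 1 table, with a column for each library. The submitters' processing notes name GRCm39, the aligner HISAT2 2.2.1, the counter HTSeq 0.11.0 and, for trimming, Trimmomatic 0.39. The annotation release and strand handling were not given in the sources used here. Libraries were stranded and polyA-selected, per the labels' protocols. Depth was 10047708 to 21872139 counts.

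The test was edgeR 4.0.16 under R 4.3.3: filterByExpr by group (14435 genes left), TMM scaling, a quasi-likelihood fit with 1 mean per group over all 12 libraries, 2-sided p-values adjusted by Benjamini-Hochberg over all genes, called under 0.05. The fit was tested on simulated data. Exon length and GC content were matched by identifier to GENCODE M21, which annotates GRCm38, and covered 99.8% of tested genes. Alternatives were RLE scaling, no filter, 1 CPM in 3 libraries, DESeq2 1.42.0, limma-voom (limma 3.58.1), only the groups compared, the replicate numbers as a block, GC and length offsets, and libraries left out.

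All members and Fhl2 were named. Each related list added up to 3 called genes per comparison (the largest changes, averaging 5 CPM or more), not all printed. For each member the closest genes by Pearson's r were taken among genes with that mean; not every result of this search is reported here. Members and lists were chosen with earlier results of these data known.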

Additional observations from a re-analysis of the deposited data

How the results depend on the processing

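Most values kept their direction and their side of the threshold under the alternatives. Members called with induction in control went from 8 to 4 with the GC offset and to 5 with the replicate block and GC offset, and ranged from 6 to 8 when 1 library was left out. Over all 14435 genes, the number called went from 8246 to 5633 and to 5325, and ranged from 7140 to 8724 when 1 library was left out. Between the lines at day 0, 1 member was called without a filter, with 69 of 24091 genes. With only the libraries compared it was 1 member and 247 of 14435 genes. At day 2 none was called with the GC offset, with GC and length, or with the block and GC. With only the libraries compared, Dcn was called at day 2, with 53 of 14435 genes. Once the 3 day 2 libraries poorest in detected genes were left out, Dcn was 0.64, Prelp -0.63 and Podn -2.88 between the lines at day 2. That fit holds 1 FHL2 library at day 2. The cause was not tested. With the replicate block 8, 6, 0, 1 and 0 members were called in the 5 comparisons, as without it. Same-numbered libraries did not deviate together throughout. In control, day 0 against day 2, r was 0.162, 0.0614 and 0.184, and between the lines at day 0 it was 0.243, -0.117 and 0.267. The labels do not say whether the numbers pair the libraries, and so few values cannot decide it.

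Values that changed sign follow, in the order GC offset, GC and length offset, replicate block with GC offset. With induction in control these were Dcn 1.22, 1.21 and 1.20, Lum 0.62, 0.43 and 0.56, Aspn 0.41, 0.20 and 0.37, and Podn -0.56, -0.52 and -0.63. In FHL2 cells they were Dcn 1.33, 1.33 and 1.33, Lum 1.15, 0.91 and 1.11, Podn -0.64, -0.60 and -0.84, and Aspn 0.20 and, with the block and GC, 0.21. In the interaction they were Aspn -0.21, -0.27 and -0.16 and, for the first 2 settings, Ogn -0.013 and -0.055. Podn in FHL2 cells was -0.39 with limma-voom and -0.16 with the replicate block, and Aspn between the lines at day 2 was 0.0031 with the block. Without those 3 libraries, Podn in FHL2 cells was -1.74, Lum -0.58, Bgn -0.029, Ogn 0.10 and Aspn 0.030 between the lines at day 2, and Lum -0.28 in the interaction. Leaving out 1 library moved Podn from -0.070 to 0.37 in control, from -0.70 to 0.50 in FHL2 cells and from -0.85 to 0.35 in the interaction, Prelp from -0.14 to 0.034 in the interaction, and, between the lines at day 2, Aspn from -0.25 to 0.22 and Lum from -0.042 to 0.67. Depth limits Omd, with at most 37 counts in a library, and Podn, with 18 to 141.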

Other observations

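The ratio of Bgn to Fmod counts set the lines apart at day 0, at 156 to 181 in control and 275 to 337 in FHL2 cells, with no overlap. At day 2 it was 2528 to 6414 in control and 2002 to 3357 in FHL2 cells, and these ranges overlapped. Kera, the cornea-type member beside Lum on chromosome 10, measured 1.97 ± 0.302 CPM in control at day 0 and 2.66 ± 1.34 CPM at day 2 (SD, n = 3). It was not called between the days with TMM scaling and was called higher in both lines with the GC offset (2.22 in control, 1.82 in FHL2 cells), as was Dcn nearby. Lum, which lies between them, was called higher with that offset in FHL2 cells only. The ratio was chosen after its values were seen, and neither pattern was tested further.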
